A study of Homo sapiens with 3 samples.

Results

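The TNF receptor superfamily and death receptor set comprised 10 genes: TNFRSF9, NGFR, FAS, TNFRSF1A, TNFRSF1B, TNFRSF10A, TNFRSF10B, TNFRSF10C, TNFRSF10D and TNFRSF21. The genes were chosen by name, with earlier results of these data known. Every probe whose transcript accession belongs to one of them was taken. This gave 13 of the 58191 probes with a value on all arrays and 10 of the 22435 genes that could be named. FAS has 3 probes, TNFRSF1B has 2 and the other 8 genes have 1 each. The study itself lists NGFR and TNFRSF9 among the genes induced by cordycepin on these same arrays, so their rise here is not independent evidence.

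The study asked which genes respond to cordycepin in A549, an established line of human lung adenocarcinoma cells. Cells were kept for 48 h with 0.1% DMSO as the vehicle control, with cordycepin at 60 μg/mL or with cordyceps at 100 μg/mL. Cordycepin is an analog of the nucleoside adenosine, and the labels name cordyceps without further description. Total RNA of each condition was hybridized to 1 Agilent whole-genome array (n = 1), so each ratio below compares 2 arrays, has no replicate error and carries no p-value. Per the labels, all 3 cultures were kept at 37 °C and 5% CO2 in DMEM that contained fetal bovine serum at 10%, penicillin-streptomycin at 1%, zinc sulfate at 16.7 μM, troglitazone at 10 μM and nicotinamide at 10 mM, while the methods of the study name only serum and antibiotics. Nicotinamide, troglitazone and zinc were thus, by the labels, present in the control cells too.

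Receptors of the TNF superfamily are membrane proteins that gather into clusters when a ligand trimer binds outside the cell. Those with an intracellular death domain can recruit adaptors such as FADD or TRADD, which lead either to caspase-8 and apoptosis or to NF-kB, whereas receptors without that domain bind TRAF adaptors directly. NF-kB in turn raises transcription of survival genes such as BIRC3 and TNFAIP3 and of several ligands and receptors of the same family.

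The stretches upstream of the start site are shown for the receptor with the highest measured ratio on both treated arrays (TNFRSF9), for the one with 3 probes that moved together with cordycepin (FAS, the first listed of its 3 windows) and for the one that was lower on both treated arrays (TNFRSF1A). Each is the 250 bases before the transcription start of the RefSeq annotation of GRCh38.p14, written in the direction of transcription, at chr1:7940840-7941089 on the minus strand, chr10:88990548-88990797 on the plus strand and chr12:6342077-6342326 on the minus strand. Capitals mark matches on either strand to the NF-kB consensus or to the AP-1 motif TGANTCA.
TNFRSF9: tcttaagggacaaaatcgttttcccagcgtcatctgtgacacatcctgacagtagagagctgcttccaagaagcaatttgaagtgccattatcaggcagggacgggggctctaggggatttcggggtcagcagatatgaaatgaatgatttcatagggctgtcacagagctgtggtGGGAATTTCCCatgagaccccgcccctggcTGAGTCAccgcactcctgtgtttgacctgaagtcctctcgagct
FAS: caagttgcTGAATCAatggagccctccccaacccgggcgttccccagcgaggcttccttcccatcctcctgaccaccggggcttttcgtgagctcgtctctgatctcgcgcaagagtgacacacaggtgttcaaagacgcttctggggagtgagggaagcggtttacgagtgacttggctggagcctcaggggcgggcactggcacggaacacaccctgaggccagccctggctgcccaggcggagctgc
TNFRSF1A: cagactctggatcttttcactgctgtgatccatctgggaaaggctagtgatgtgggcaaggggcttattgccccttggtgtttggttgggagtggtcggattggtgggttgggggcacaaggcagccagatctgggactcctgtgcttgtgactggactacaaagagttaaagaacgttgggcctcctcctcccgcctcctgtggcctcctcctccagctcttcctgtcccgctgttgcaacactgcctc
In the TNFRSF9 window, 2 overlapping NF-kB matches, together GGGAATTTCCC, lay 74 to 64 bases before the start, and an AP-1 match, TGAGTCA, lay 44 to 38 bases before it. Of the 35114 windows of this length in the RefSeq table, 8.04% held an NF-kB match and 6.57% an AP-1 match. The FAS window shown held an AP-1 match 242 to 236 bases before its start and no NF-kB match, and the second of its 3 windows held an NF-kB match. The TNFRSF1A window held neither. The motif GGGCGG, a GC box present in 42.6% of all windows, was found in the windows of TNFRSF9, FAS, TNFRSF1B and TNFRSF21 and not in that of TNFRSF1A, and TATAAA, present in 10.7%, was found in none of the 7 windows of these 5 genes. A match is a description of the letters in this window only. Windows for NGFR, TNFRSF10A, TNFRSF10B, TNFRSF10C and TNFRSF10D were not used here.

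The values are processed spot signals, the brightness of a spot after the scanner software had subtracted background, and the error beside each is that software's own estimate for the spot. For a ratio, each array's 75th percentile was first subtracted from its log2 signals, which stood at a signal of 260.1 for control, 224 for cordycepin and 260.2 for cordyceps. Signals in the text are unscaled and ratios are scaled. A signal was called detected when it was well above background by the software's flag, and a ratio was called at 2-fold or more. Because probes differ in how well they hybridize, levels were compared between arrays for one probe and never between probes. Over all probes, 42.1% to 49% were detected per array. The spread of a single probe's log2 ratio, taken from the 2 brightest probes of 3356 genes, had an SD of 0.35 for cordycepin over control and 0.34 for cordyceps over control. It was 0.42 in both comparisons for probes under a signal of 100, and 0.25 and 0.20 for probes at 1000 or more.

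On the cordyceps array, one corner (rows over 5/8 and columns over 1/2 of the highest) held raised signals. There, 9.93% of the probes that were not detected in control cells became detected with cordyceps, compared with 0.931% outside the corner, and with cordycepin the shares were 4.92% and 5.78%. The corner holds 18.6% of the probes and 2 of the 13 receptor probes, those of NGFR and TNFRSF1A. Epithelial markers fit the label of the cells, since 6 of 6 (EPCAM, CDH1, KRT7, KRT8, KRT18 and KRT19) were detected on every array. Of 8 leukocyte markers on the arrays, 5 were detected in control cells and 4 with either treatment. Their summed scaled signal was 14.4 in control, 8.55 with cordycepin and 9.38 with cordyceps, and rests largely on CD14 (3387, 1559 and 2183). PTPRC, found on all leukocytes, was detected on every array (99.5, 71.8 and 72.9), as were CD14, ITGAM and SPI1. With cordycepin the log2 ratios went both ways, at -0.91 for CD14, -0.26 for PTPRC, 0.58 for ITGAM and 0.63 for SPI1. Of the lymphocyte genes, CD2 was detected in control cells alone (31.5), and CD3E and MS4A1 were not detected on any array. The labels name A549 cells alone, and neither the source of these marker signals nor their bearing on the receptor signals was tested. Of 6 fibroblast markers, 1 was detected on each array, and of 5 endothelial markers, 2 were detected in control cells, 2 with cordycepin and 0 with cordyceps. Of 6 neural and neural crest markers, 2 (TUBB3 and SNAP25) were detected on each array and SOX10 and S100B on none.

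Across the receptors, TNFRSF9 and NGFR were higher in cordycepin-treated cells than in control cells, FAS was moderately higher by all of its probes, TNFRSF1A and TNFRSF10D were lower by less than 2-fold, and TNFRSF10A, TNFRSF10B, TNFRSF10C and TNFRSF21 differed from control by less than the spread between probes. With cordyceps, TNFRSF9, NGFR and the decoy receptor TNFRSF10C were higher, TNFRSF1A was lower by less than 2-fold, and FAS stayed close to control. TNFRSF10B (log2 0.45) and TNFRSF21 (log2 -0.26) were past the SD for bright probes (0.20) but under 2-fold. The sign of TNFRSF21 turned under median scaling. TNFRSF10A and TNFRSF10D stayed within the spread between probes. Of the 13 receptor probes, 10 were detected in control cells and 11 on each treated array. With cordycepin, 2 probes were at least 2-fold higher, where 7.07% of the 30164 probes detected on at least 1 of both arrays were, and 0 were at least 2-fold lower, where 3.62% were. With cordyceps, 3 receptor probes were at least 2-fold higher, where 5.21% of 29259 probes were, and 0 were at least 2-fold lower, where 3.21% were. With the corner left out, 1 receptor probe was higher with cordycepin (TNFRSF9) and 2 with cordyceps (TNFRSF9 and TNFRSF10C), and 0 were lower. The shares over all probes were then 7.29% higher and 3.6% lower with cordycepin, and 3.51% and 2.21% with cordyceps. Both comparisons use the same control array, so an error of a spot there would move both ratios.

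**Figure D1:**
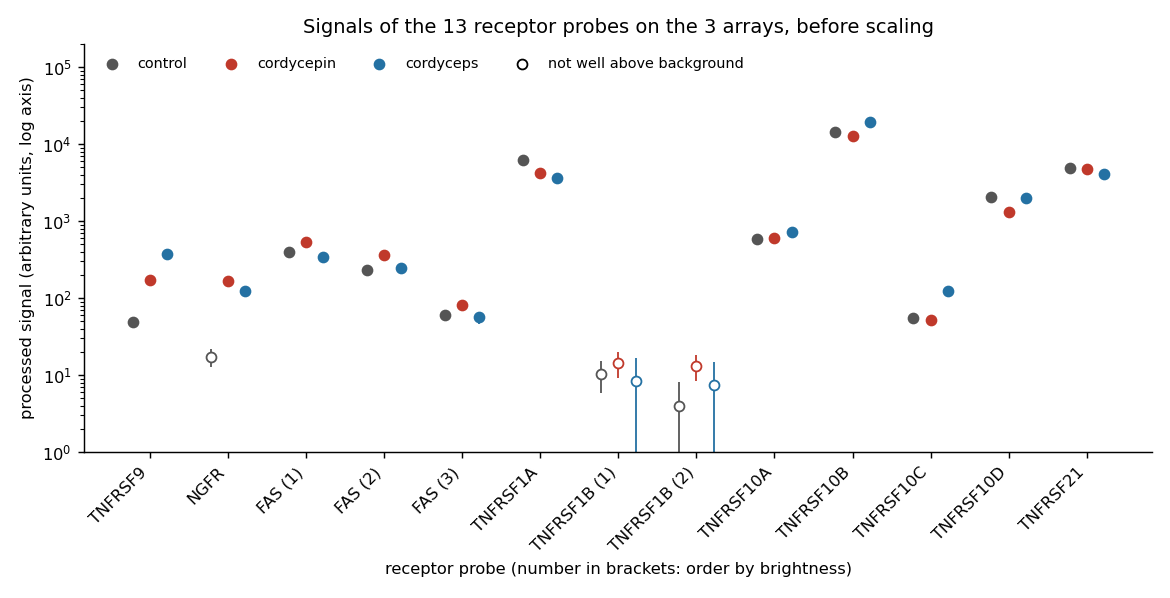
Processed signal (log axis, before scaling) of each of the 13 receptor probes on the control, cordycepin and cordyceps arrays, 1 array per condition. Bars are the scanner software's error of the spot, mostly smaller than the point, and open points were not well above background. TNFRSF9 and NGFR sit above control on both treated arrays, all 3 FAS probes are highest with cordycepin, TNFRSF10C is highest with cordyceps, and both TNFRSF1B probes are open on every array. Bars of the open points that reach 1 are cut at the axis.

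TNFRSF9 (CD137) is a costimulatory receptor best known from activated T cells and natural killer cells, and it signals through TRAF adaptors without a death domain. Its signal was 48.8 ± 6.71 in control cells, 175 ± 18.2 with cordycepin and 378 ± 38.7 with cordyceps. The signals thus rose in the order control, cordycepin, cordyceps, with error ranges that did not overlap. The scaled ratio over control was 4.15-fold with cordycepin (log2 2.05, with an error of 0.25 from the spot errors) and 7.74-fold with cordyceps (log2 2.95, error 0.25). In bulk RNA, more cells with a transcript and more transcript per cell cannot be told apart. These log2 ratios exceeded the SD for probes between 100 and 1000 (0.34 and 0.35) and that for probes under 100 (0.42). Of the measured probes, 0.492% and 0.333% had a ratio at least as high. The spot lies outside the corner, and with the corner left out the ratios were 4.16-fold and 8.38-fold. Under normexp background correction, which adds an offset to every signal, the log2 ratios were lower, at 1.18 and 1.84, and still past 2-fold. Between the treated arrays, cordycepin over cordyceps gave a log2 ratio of -0.90, and of -1.01 with the corner left out, which passes 2-fold, as 5.23% of probes did in that direction and 6.62% in the other.

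NGFR (p75) binds neurotrophins and carries an intracellular death domain. Its signal was 17.3 ± 4.38 in control cells, 167 ± 17.4 with cordycepin and 125 ± 14.6 with cordyceps. The control signal was positive and significant by the software's flag but not well above background, so both ratios are lower bounds against the lowest detected signal of the control array, 18.6. NGFR was at least 10.4-fold higher with cordycepin and at least 6.71-fold higher with cordyceps. Under normexp background correction these fell to 3.20-fold and 2.32-fold. The treated signals were 1.55-fold apart (log2 0.63), above the SD of that comparison for probes under 100 (0.51) and for those between 100 and 1000 (0.43). The NGFR spot lies in the corner, on its inner side. Of the 210 probes within 15 rows and 7 columns of it that were not detected in control cells, 7 were detected with cordycepin and 1 with cordyceps, and 0 reached the NGFR signal on either array. The antisense gene NGFR-AS1 was not detected on any array.

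FAS (CD95) is the receptor of FASLG, recruits FADD through its death domain and is a known p53 target. The brightest probe gave 393 ± 39.6 in control cells, 543 ± 54.6 with cordycepin and 348 ± 35.8 with cordyceps. The second gave 236 ± 23.9, 363 ± 36.6 and 244 ± 25.6, and the third 59.9 ± 7.31, 80.8 ± 9.47 and 56.5 ± 9.66, in the same order of arrays. All 3 probes were thus highest with cordycepin, and the error ranges of the control and cordyceps signals overlapped for each probe. With cordycepin the probes were 1.61-fold, 1.79-fold and 1.57-fold higher, with a mean log2 ratio of 0.72 ± 0.10 (SD over 3 probes of the same RNA, which are not replicates of the culture). None reached 2-fold, and 8.99%, 6.07% and 9.91% of the measured probes had a ratio at least as high. With cordyceps the log2 ratios were -0.18, 0.05 and -0.08, within the SD between probes, and the sign for the brightest probe turned to 0.09 when arrays were scaled to their medians. Cordycepin over cordyceps gave 0.86, 0.79 and 0.73 on the log2 scale, each above the SD of that comparison, which was 0.43 for probes between 100 and 1000 and 0.51 for those under 100.

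TNFRSF1A is the main TNF receptor of most cells, with a death domain that binds TRADD. Its signal was 6278 ± 628 in control cells, 4183 ± 418 with cordycepin and 3607 ± 361 with cordyceps, so it was highest in control. After scaling, the log2 value with cordycepin (4.22) lay between those of control (4.59) and cordyceps (3.79). The scaled log2 ratio was -0.37 with cordycepin (1.29-fold lower) and -0.80 with cordyceps (1.74-fold lower), each with an error of 0.20 from the spot errors and past the SD for bright probes, and 5.89% of the measured probes were at least as low with cordyceps. Its spot lies in the corner, where the median log2 ratio of the 160 measured surrounding probes with cordyceps was -0.26, and with that median subtracted the ratio was -0.54. TNFRSF1B, the second TNF receptor, lacks a death domain and is typical of blood and endothelial cells. Its probes gave 10.5, 14.6 and 8.41, and 4.03, 13.2 and 7.36, in control, cordycepin and cordyceps cells, respectively. None of these signals was well above background, so no ratio was taken and no order of the arrays can be given.

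**Figure D2:**
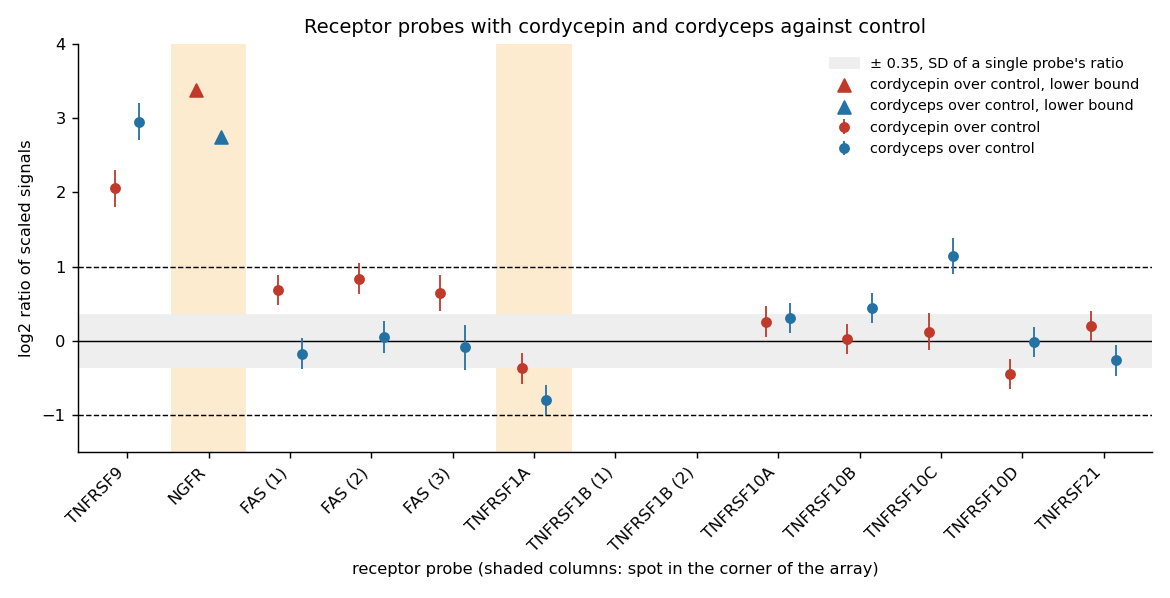
Log2 ratio of the scaled signals of each receptor probe, cordycepin over control and cordyceps over control. Bars are errors propagated from the spot errors, triangles are lower bounds, dashed lines mark 2-fold, the grey band is the SD of a single probe's ratio, and the shaded columns mark the 2 probes in the corner. TNFRSF9, NGFR and, with cordyceps, TNFRSF10C lie past the upper line, and the 3 FAS probes lie above the grey band with cordycepin alone. TNFRSF1B has no ratio.

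The TRAIL receptors comprise TNFRSF10A and TNFRSF10B, whose death domains recruit FADD, and the decoys TNFRSF10C and TNFRSF10D, of which the first has no intracellular domain and the second a truncated death domain. TNFRSF10A gave 592 ± 59.4 in control cells, 611 ± 61.4 with cordycepin and 733 ± 73.9 with cordyceps. Its log2 ratios of 0.26 and 0.31 were within the SD between probes, and the first turned to -0.0045 under median scaling. TNFRSF10B, a target of p53 and of the stress factor DDIT3, gave 14430 ± 1443, 12690 ± 1269 and 19690 ± 1969. Its log2 ratio was 0.03 with cordycepin, with a negative sign under median scaling, no scaling and normexp background correction, and 0.45 with cordyceps, where the SD for bright probes was 0.20.

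TNFRSF10C gave 55.2 ± 6.65 in control cells, 51.9 ± 6.75 with cordycepin and 122 ± 14.0 with cordyceps, so the cordyceps signal stood apart and the other two overlapped. It was 2.22-fold higher than control with cordyceps (log2 1.15, error 0.24; 2.46% of measured probes at least as high) and 2.40-fold with the corner left out, but 1.49-fold, below the threshold, under normexp background correction. Its spot lies at row 231 and column 89, just outside the corner, and of the 192 surrounding probes not detected in control cells, 1 was detected with cordyceps and 0 reached its signal. With cordycepin its log2 ratio was 0.13, negative under median scaling and no scaling. Cordycepin was 2.03-fold lower than cordyceps for this probe, the one receptor probe past 2-fold between the treated arrays, where 6.45% of 28672 probes were at least 2-fold lower and 7.88% at least 2-fold higher. TNFRSF10D gave 2049 ± 205, 1300 ± 130 and 2022 ± 202. It was 1.36-fold lower with cordycepin (log2 -0.44, error 0.20), past the SD for bright probes, and level with control with cordyceps (log2 -0.02, positive under 6 of the 12 alternatives). The 4 TRAIL receptor genes are similar in sequence, and hybridization of one transcript to the probe of another was not tested.

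TNFRSF21 carries a death domain and is known from neurons and T cells. Its signal was 4868 ± 487 in control cells, 4819 ± 482 with cordycepin and 4058 ± 406 with cordyceps, and the error ranges overlapped. Its log2 ratio was 0.20 with cordycepin, within the SD for bright probes and negative under median scaling and no scaling. With cordyceps it was -0.26, past the SD for bright probes (0.20), and turned to 0.01 under median scaling. Over the 9 receptor genes with a ratio, the median log2 ratio was 0.20 with cordycepin, compared with -0.05 over all 15762 named genes with a ratio, and 0.31 with cordyceps, compared with -0.12 over 14902 genes.

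Cordycepin and cordyceps were given at different doses and are different agents, so their values stand side by side without a claim on either agent's strength. The order of the treated arrays differed among receptors: TNFRSF9, TNFRSF10B and TNFRSF10C were lower with cordycepin than with cordyceps, as was TNFRSF10D, with log2 ratios of -0.90, -0.42, -1.02 and -0.42. FAS, NGFR, TNFRSF21 and TNFRSF1A were higher with cordycepin, at 0.86 (brightest probe), 0.63, 0.46 and 0.43, while TNFRSF10A differed by -0.05. For the bright probes of TNFRSF10B, TNFRSF10D, TNFRSF21 and TNFRSF1A the SD between probes in this comparison was 0.26.

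**Figure D3:**
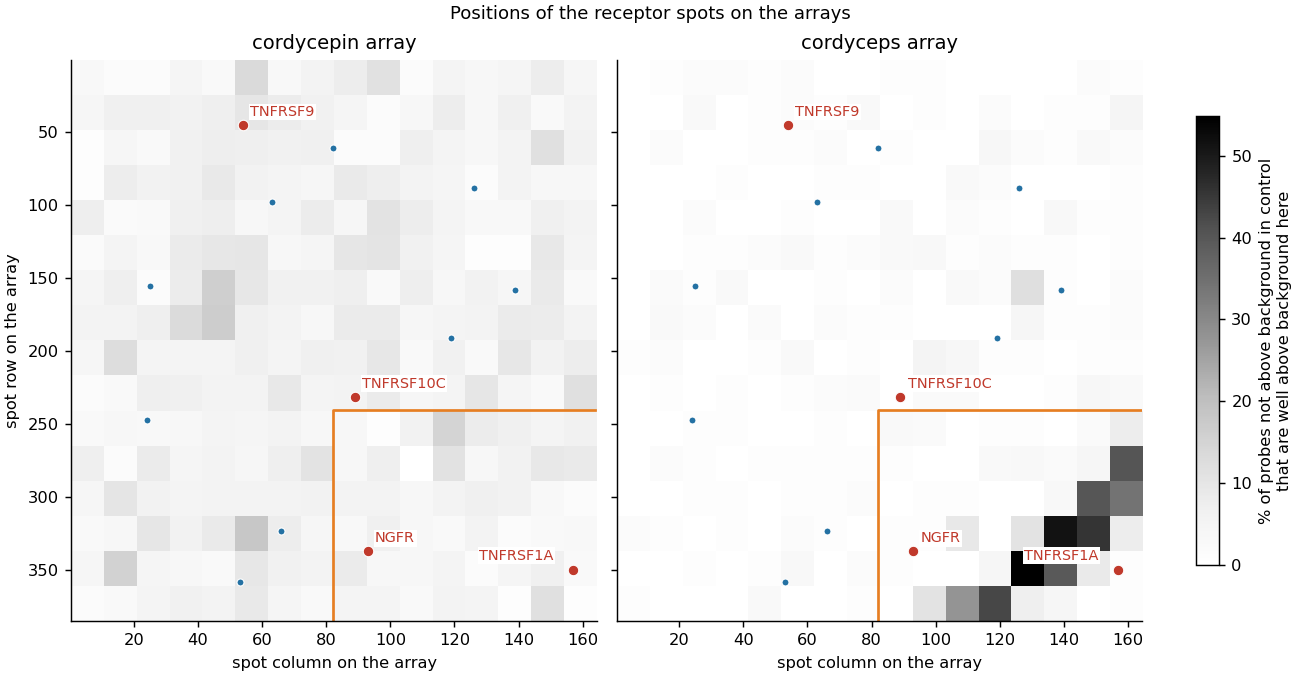
Positions of the 13 receptor spots on the cordycepin and cordyceps arrays (axes in spot rows and columns), over blocks shaded by the percentage of probes not above background in control cells that were well above background on that array. The orange line bounds the corner, red points are named and blue points are the other receptor spots. On the cordyceps array the darkest blocks form a band inside the corner, and NGFR, TNFRSF10C and TNFRSF9 lie outside that band, with TNFRSF1A beside it.

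The ligands of these receptors were measured from a list of 22 genes of the TNF and neurotrophin families. With cordycepin, 5 of the 13 ligand genes with a ratio were at least 2-fold higher and 1 was lower, where 5.95% of all named genes were higher and 3.57% lower, and the median log2 ratio was 0.57. With median scaling or no scaling, 3 were higher (TNF, LTB and CD70). TNF itself, the ligand of TNFRSF1A and TNFRSF1B, gave 37.8 in control cells, 148 with cordycepin and 86.7 with cordyceps, and was 4.53-fold and 2.29-fold higher. Under normexp background correction its log2 ratios were 1.22 and 0.55, so that the second fell under 2-fold. TNFSF9, the ligand of TNFRSF9, gave 1513, 2795 and 1123. It was 2.14-fold higher with cordycepin, though under 2-fold when arrays were scaled to their medians or left unscaled. With cordyceps its log2 ratio was -0.43 and stayed negative under the 11 alternatives run for it, up to -0.16 under median scaling, while the receptor TNFRSF9 was higher on that array.

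Ligands of other receptors of the family were among those higher with cordycepin. LTB, which forms lymphotoxin complexes that bind LTBR, was 2.48-fold higher, and CD70, the ligand of CD27, was 2.79-fold higher, with signals of 4810 in control cells, 11560 with cordycepin and 2532 with cordyceps. NTF4, a neurotrophin that binds NGFR, was 2.11-fold higher with cordycepin, but fell under 2-fold with median scaling, no scaling and normexp background correction. TNFSF14, whose receptors include LTBR, was 3.76-fold lower with cordycepin by a probe in the corner, with a log2 ratio of -0.79, under 2-fold, under normexp. FASLG, LTA and NTF3 were not detected on any array, so no level of the ligand of FAS was measured in these cells. BDNF, another NGFR ligand, gave log2 ratios of -0.05 and -0.65 with cordycepin and cordyceps.

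With cordyceps, 2 of 11 ligand genes with a ratio were at least 2-fold higher, TNF and TNFSF10, and 0 were lower, where 4.19% of named genes were higher and 3.15% lower; the median log2 ratio was -0.43. TNFSF10 alone was called under normexp and TNF alone with the corner left out. TNFSF10 encodes TRAIL, the ligand of the TNFRSF10 receptors. Its brightest probe, which lies in the corner, gave 117 in control cells, 79.1 with cordycepin and 412 with cordyceps, a 3.53-fold higher value with cordyceps. A second TNFSF10 probe, outside the corner, gave 205, 92.9 and 89.1 and log2 ratios of -0.93 and -1.20. The probes of TRAIL thus disagreed in direction on the cordyceps array, and no direction is given for it there.

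Among 19 other receptors of the family, 1 of the 11 genes with a ratio, LTBR, was at least 2-fold lower with cordycepin and 0 were higher, where 3.57% and 5.95% of named genes were. CD27, not detected with cordycepin, was at least 1.87-fold lower there and was at least 2-fold lower under 5 of 9 alternatives, median scaling, quantile normalization and no scaling among them. LTBR, the lymphotoxin beta receptor, gave 4695 in control cells, 1708 with cordycepin and 3612 with cordyceps, and was 2.37-fold lower with cordycepin and 1.30-fold lower with cordyceps. With cordyceps, CD27 was 3.50-fold higher by a probe in the corner and was the only one of 10 past 2-fold, where 4.19% of named genes were higher, but its log2 ratio was 0.72 under normexp. Among 9 genes listed as partners of NGFR, NTRK3, a neurotrophin receptor kinase, was 2.89-fold lower with cordycepin, and its other probes had log2 ratios of -2.23 and -2.33. None of the 6 partners with a ratio passed 2-fold with cordyceps. The kinase NTRK2 was not detected on any array.

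**Figure D4:**
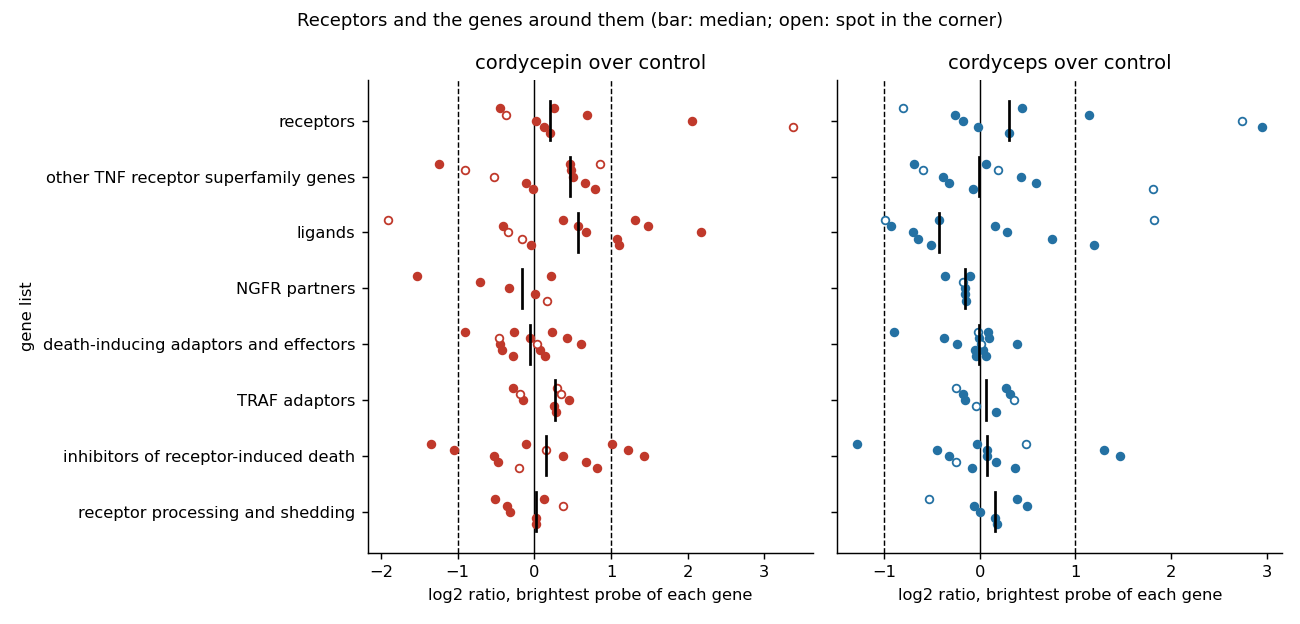
Log2 ratio of each gene by its brightest probe, in the receptor set and the 7 lists of genes around it, for cordycepin over control and cordyceps over control. Black bars are medians, dashed lines mark 2-fold and open points are spots in the corner. Ligands with cordycepin extend furthest to the right after the receptors, with a median of 0.57, and the death-inducing adaptors and effectors stay between the dashed lines in both panels.

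Of 13 adaptors and effectors that carry the death signal and had a ratio, 0 passed 2-fold with either treatment. Over all named genes, 5.95% were higher and 3.57% lower with cordycepin, and 4.19% and 3.15% with cordyceps, so a count of 0 among 13 is near the background. In this list the median log2 ratios were -0.06 and -0.01. FADD, which bridges FAS and the TRAIL receptors to CASP8, had log2 ratios of -0.47 with cordycepin and 0.02 with cordyceps, and TRADD, the adaptor of TNFRSF1A, -0.42 and 0.09. RIPK1, the kinase bound by TRADD, was lowest of the list with cordycepin at -0.91, passed 2-fold lower with median scaling (-1.17) and with no scaling, and gave -0.23 with cordyceps, the latter positive (0.04) under median scaling. CASP8, the initiator caspase, had 0.23 and -0.05, with opposite signs under median scaling for both. CASP10 showed probes that disagreed: its brightest probe gave 0.07 with cordycepin and -0.89 with cordyceps, whereas the next 2 gave 1.25 and 1.86 with cordycepin and 0.71 and 0.85 with cordyceps. RIPK3, the kinase of necroptosis, was not detected on any array. By their brightest probes, all 8 TRAF adaptor genes were between 2-fold lower and 2-fold higher with both treatments, among them TRAF1 (log2 0.26 and 0.31), which binds TNFRSF9. For TRAF4 that probe gave log2 ratios of 0.45 with cordycepin and 0.17 with cordyceps. Its second probe gave 1.05, past 2-fold, and 0.66. None of the 7 receptor processing genes with a ratio passed 2-fold with either treatment.

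Inhibitors of receptor-induced death moved in both directions. With cordycepin, 3 of 13 were at least 2-fold higher and 2 were lower, where 5.95% and 3.57% of named genes were, with a median log2 ratio of 0.15. TNFAIP3, a ubiquitin-editing brake on NF-kB, gave 605 in control cells, 1407 with cordycepin and 1669 with cordyceps, and was 2.70-fold and 2.76-fold higher. BIRC3, an inhibitor of apoptosis bound by TRAF adaptors, gave 4354, 8749 and 5642, which was 2.33-fold higher with cordycepin, with a log2 ratio of 0.96 under median scaling, and 1.29-fold with cordyceps. OTULIN, a deubiquitinase of the TNFRSF1A complex, was 2.02-fold higher with cordycepin and fell under 2-fold with 4 of the alternatives. The 2 lower genes, FAIM and FAIM2, both encode inhibitors of FAS-induced apoptosis, and were 2.54-fold and 2.07-fold lower. FAIM2 had log2 ratios of -0.53 with cordycepin and -0.68 with cordyceps under normexp, so both of its calls were lost there. CFLAR, the caspase-8 homologue that blocks the FAS complex, was 1.76-fold higher by its brightest probe, but its other probes gave log2 ratios of 0.34, -0.26 and -0.55. BIRC2 had a log2 ratio of -0.11. With cordyceps, TNFAIP3 and RBCK1 (2.46-fold) were higher and FAIM2 was 2.43-fold lower, where 4.19% and 3.15% of named genes were. The study lists TNFAIP3 and FAIM2 among its cordycepin-responsive genes from these arrays, so they are not independent evidence either.

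Among the receptors and the 7 lists, 10 genes were at least 2-fold higher with cordycepin, and 8 of them have a window in the RefSeq table. Of these 8 genes, 4 (BIRC3, LTB, TNFAIP3 and TNFRSF9) hold an NF-kB match in any of their windows, compared with 18 of the 59 genes with a ratio and a window. These counts are per gene, whereas the shares over the RefSeq table are per window. Of the 4 lower genes with a window, 2 (NTRK3 and TNFSF14) hold one. TNFRSF9 alone of the 8 held an AP-1 match, compared with 10 of the 59 genes with a ratio and a window. Of the 4 lower genes, TNFSF14 held one.

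Genes with similar signals over the 3 arrays were sought among the named genes outside the corner that were detected on the cordycepin array. Each profile was centred on its own mean and compared by Euclidean distance in log2 units. The genes most like TNFRSF9 were ATF3 (0.18), IL6 (0.32) and OR4A5 (0.33). ATF3, a stress-response transcription factor, gave 517, 1772 and 4542 on the control, cordycepin and cordyceps arrays, and the cytokine IL6 gave 195, 557 and 1118. Both had the order of TNFRSF9, with the highest signal on the cordyceps array. OR4A5, an olfactory receptor gene, was not detected in control cells. For NGFR the most similar was PTX3 (0.08), a secreted pentraxin, with 11.7, 121 and 86.7, not detected in control cells. PRAMEF1 (0.20) and STOML3 (0.24) followed and were not detected in control cells or with cordyceps. Detection with cordycepin was a condition of the search, so it is no result for any of these genes. A profile of 3 arrays has few degrees of freedom, so such likeness is a description.

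**Figure D5:**
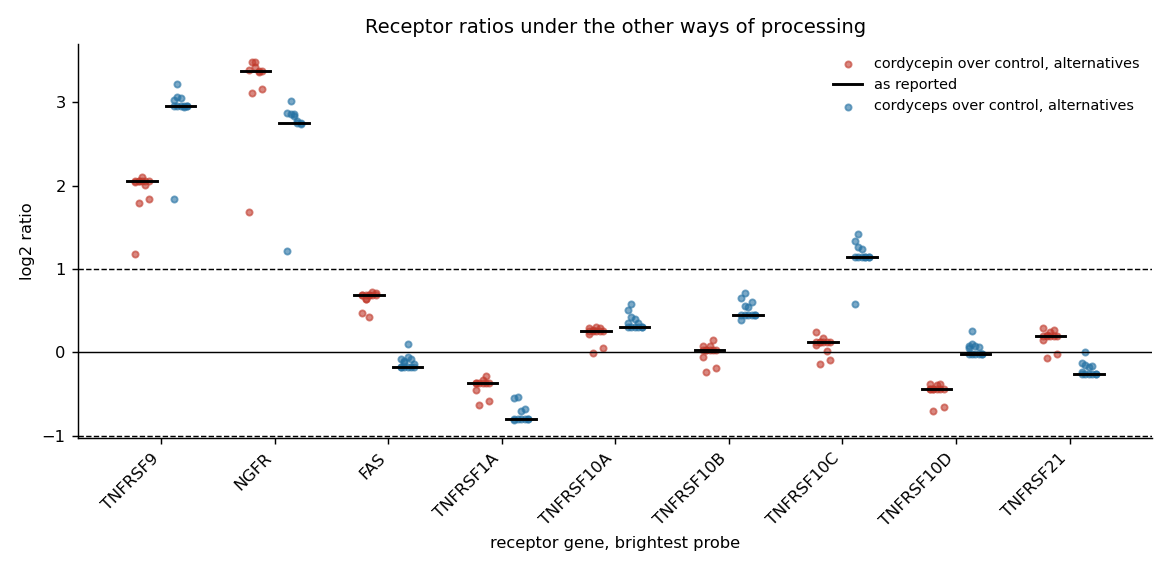
Log2 ratios of the 9 receptor genes with a ratio, by the brightest probe, under the alternative ways of processing (points) and as reported (black bars), for cordycepin over control and cordyceps over control. Dashed lines mark 2-fold. TNFRSF9 and NGFR stay above the upper line under every alternative shown, with normexp background correction giving the lowest points, TNFRSF10C with cordyceps falls below it once, and the other receptors stay between the lines.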

How the data were processed

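Total RNA of A549 cells was measured on 3 single-colour (Cy3) Agilent arrays of 62976 spots, 1 per condition, all on the same slide. The authors deposited the scanner output of Agilent Feature Extraction 11.5.1.1, whose intensity values are background-subtracted within each array and not scaled between arrays, and a table of the same intensity values. The methods of the study name Cy5 for cordycepin RNA and GeneSpring for normalization, whereas the files hold 1 Cy3 channel per condition, so ratios were taken between arrays.

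Control spots and outlier spots were left out (63 to 106 per array, 0 of them a receptor spot). The log2 values of replicate spots were averaged, and each array's 75th percentile was subtracted. Detection of a probe required the well-above-background flag on 50% or more of its spots. A ratio is measured where both arrays detected the probe. Where 1 did, it is a bound against the higher of the undetected signal and the lowest detected signal of that array. For a gene, the probe brightest over the 3 arrays was used. Probes were named through the RefSeq transcripts of GRCh38.p14, which matched 31097 probes. The array design uses hg19, so no probe coordinates are given. The named genes are all receptors, list genes past 2-fold, the receptors' own ligands, a fixed few adaptors and inhibitors, and the 3 genes nearest to each receptor called with cordycepin. The members and lists were chosen with earlier results of these data known.

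With 1 array per condition no test was run, and a difference between cultures other than the treatment cannot be told apart from it. The number of arrays limits the precision. The alternatives were other scalings, normexp background correction in limma 3.58.1 (R 4.3.3), other detection rules, outlier spots kept, the deposited table, the corner left out, 1.5-fold and 3-fold thresholds, genes in place of probes, the median over probes and, added after seeing the data, the median of the surrounding spots subtracted. The calling step was tested on simulated data, with noise smaller than the spread between probes seen here. Changes were planted only in probes well over the floor in control, so an upward bound such as that of NGFR was not tested. The work used Python 3.11.15, numpy 2.4.6 and pandas 2.3.3.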

Additional observations from a re-analysis of the deposited data

How the results depend on the processing

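Of 212 alternative values of receptor ratios, 207 moved by less than the SD of a single probe's ratio and 5 by more, all 5 under normexp background correction with an offset of 50: TNFRSF9 gave log2 ratios of 1.18 with cordycepin and 1.84 with cordyceps, NGFR 1.68 and 1.21, and TNFRSF10C with cordyceps 0.57, below 2-fold. Many of the 212 values could hardly move by construction. Other detection rules leave a measured ratio unchanged, and 0 receptor spots were outliers. Each scaling except quantile normalization shifts all ratios of a comparison alike. The count of 207 is therefore no measure of robustness. None of the called ratios changed sign (0 reversed). The offset adds a constant to every signal, which by construction draws ratios of dim probes towards 0. Of 56 alternative counts of receptor probes, 52 stayed within 1.5 times the reported count, a limit that a fall from 3 to 2 still meets. With cordyceps, the 3 higher probes became 2 under normexp background correction and at 3-fold, without TNFRSF10C. They also became 2 with detection on both arrays and with the corner left out, without NGFR. With cordycepin, the 2 higher probes became 1 when detection on both arrays was required, because NGFR was not detected in control cells, and 1 when the corner was left out, because its spot lies there, with TNFRSF9 remaining in both. A threshold of 1.5-fold gave 5 higher probes, adding the 3 of FAS, and with cordyceps 1 lower probe in place of 0, that of TNFRSF1A.

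Scaling moved all ratios together. The median log2 ratio over measured probes was -0.03 with cordycepin and -0.12 with cordyceps, and became -0.29 and 0.15 with each array scaled to its median, and -0.24 and -0.12 with no scaling. The share of higher among called probes with cordycepin was 66.1%, 36.8% with median scaling and 42.6% with no scaling, and with cordyceps 61.9%, 84.5% with median scaling, 70.9% when the 75th percentile came from detected probes alone, 73.7% with normexp and 46.1% with no detection filter. The ratio of TNFRSF1A stayed negative under every alternative run for it, from -0.64 to -0.29 with cordycepin and from -0.81 to -0.53 with cordyceps, and that of FAS with cordycepin stayed positive, from 0.42 to 0.73. No array could be left out, since each condition has 1. No paired analysis was possible because each condition has 1 array. Signals under the lowest detected level, 18.6 to 34.5 over the arrays, limit what can be said of TNFRSF1B and of NGFR in control cells.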
